A study of Mus musculus with 12 samples.

Results

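The BCL2 family survival and death genes described here are 10 genes chosen by name: *Bcl2*, *Bcl2l1*, *Mcl1*, *Bcl2l11*, *Bbc3*, *Pmaip1*, *Bax*, *Bak1*, *Bid* and *Bmf*. All 10 were found among the 41444 genes of an RNA-seq table from mouse B-ALL cells, and all 10 passed the lower limit on expression, a mean of at least 3 across samples, that left 11536 genes for testing. The cells were bone marrow pre-B cells of Ctnnb1 fl/fl genotype, whose β-catenin gene is flanked by loxP sites, transformed with BCR-ABL1 and grown without IL-7. Both groups compared carried the ERT2 vector, which holds no Cre and leaves β-catenin intact, and both received 1 µM 4-OHT for 2 days. The control group (ERT2, 3 samples) received nothing further, and the treated group (ERT2_Ly, 3 samples) also received 40 nM of the GSK3 inhibitor LY2090314 for 1 day by the sample labels, while a figure legend of the study gives a shorter exposure. The study names its replicates as mice. The series also holds Cre-ERT2 samples, which were not analysed here because the columns could not be assigned to a group by name.

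BCL2 family proteins decide whether the outer mitochondrial membrane is opened during apoptosis. The survival proteins BCL2, BCL-XL (encoded by *Bcl2l1*) and MCL1 hold the effectors BAX and BAK (*Bak1*) in check, and the BH3-only proteins BIM (*Bcl2l11*), PUMA (*Bbc3*), NOXA (*Pmaip1*), BID and BMF bind the survival proteins or the effectors and promote opening. Developing B cells are known to depend on this balance, with BIM as a main killer of B-lineage cells. GSK3 is known to phosphorylate MCL1 protein and so to mark it for degradation, and the values below are of transcripts only.

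Values are rlog values, which are read counts scaled for library size on a log2 scale, with the values of genes with few reads drawn towards the mean of the gene, so that a difference of 1 is a doubling and differences of low genes are understated. The table holds no counts and the depth of the libraries is unknown. Control samples 1 to 3 and treated samples 1 to 3 are named in the order of the columns, and treated samples 1 and 2 share a library number. The SD across genes of the difference between these 2 was 0.186. It was 0.253 for treated samples 1 and 3 and also for treated samples 2 and 3. Pairs of control samples were at 0.185, 0.239 and 0.222. Treated samples 1 and 2 were thus the closest treated pair. They were counted as separate samples, and whether they come from the same mouse is not given. All 11 pre-B markers were expressed in both groups. Of 28 markers of other lineages, all but 3 had a mean under 3: the T-lineage kinase *Lck*, from 11.36 to 11.47 in control and from 12.26 to 12.51 in treated samples, the myeloid *Lyz2*, from 5.68 to 5.91 and from 6.29 to 6.41, and the globin *Hbb-bt*, from 3.69 to 3.81 and from 3.25 to 3.33. *Mpo*, *Elane*, *S100a8* and *S100a9* were at 0 in every sample, and the T-cell receptor genes *Cd3e* and *Cd3g* were at −2.28, below the values of detected genes. The summed level of the pre-B markers was between 16.42 and 16.45 in control and between 15.89 and 16.04 in treated samples, and some single markers moved further. The mean of every pre-B marker but *Dntt* and *Cd79a* was lower in treated samples. *Cd79b* went from a mean of 12.90 in control to 11.96 in treated samples, and *Cd79a* from 14.04 to 14.28. The log2 difference was −1.93 for *Rag1*, −1.54 for *Pax5*, −1.42 for *Igll1*, −1.27 for *Vpreb1* and 0.64 for *Dntt* (adjusted p up to 0.00031, limma). The part of these shifts in the results below was not tested, and in bulk RNA fewer cells of a type and less RNA per cell cannot be told apart. Among genes known to respond to β-catenin, which GSK3 marks for degradation, *Axin2* was higher by 1.67 and *Nkd1* by 5.44 in treated samples (adjusted p = 1.5e-05 and 1.6e-08, limma with Benjamini-Hochberg adjustment). The paper names *Myc* as a Wnt target in epithelial cells, and reports repression of MYC by LY2090314 in mouse and human B-ALL cells, on protein blots. The *Myc* transcript fell here, with values given below. The transcript of *Ctnnb1*, the β-catenin gene, differed by −0.35 (adjusted p = 0.00030, limma). *Gsk3b* differed by 0.13 and did not pass (adjusted p = 0.051, limma).

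With LY2090314, 6 of the 10 genes rose, none fell, and 4 did not pass the threshold of an adjusted p under 0.05 (limma over all genes tested). All 3 survival genes rose, neither of the 2 effector genes passed, and 3 of the 5 BH3-only genes rose. The size of the change ranged from a 4.65-fold higher level of *Bcl2* to a 1.23-fold higher level of *Bcl2l1* among the 6 that rose. This treatment moved a large part of the transcriptome: 24.8% of all genes tested were called higher, 25.3% lower and 50.1% changed in either direction. The median log2 difference of the 10 genes was 0.38, against 0.012 over all genes tested. The 3 treated and 3 control samples did not overlap for the same 6 genes, where 58.6% of all genes tested showed no overlap. For each of the 6, p was 0.10 in an exact permutation test (two-sided), the smallest value that 3 samples against 3 allow.

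**Figure D1:**
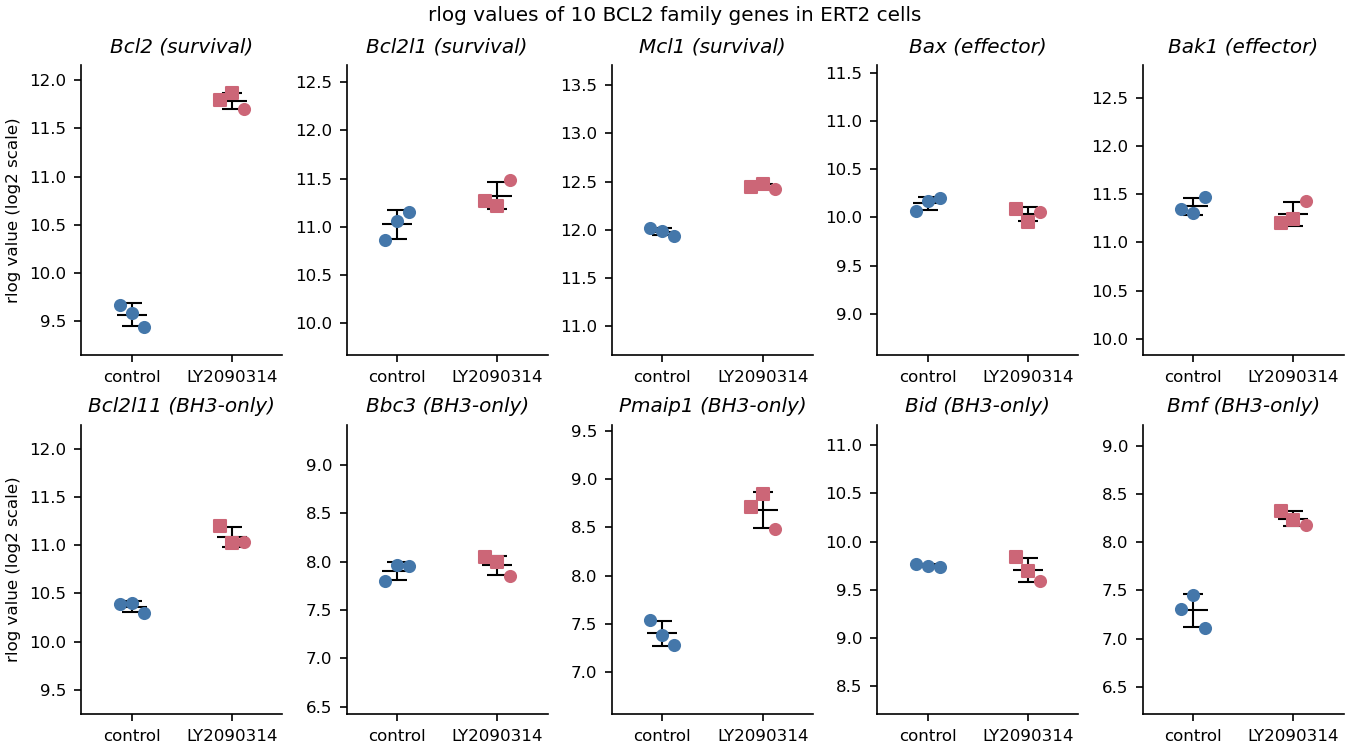
rlog values (log2 scale, y axis) of the 10 genes in control and LY2090314-treated ERT2 cells, 1 point per sample, with the mean and SD in black. Squares are the treated samples that share a library number, and all panels span 3 log2 units. *Bcl2* shows the widest gap between groups, and the points of *Bax*, *Bak1*, *Bbc3* and *Bid* overlap.

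*Bcl2* encodes the founding survival protein of the family. Its rlog value was 9.67, 9.59 and 9.44 in control samples 1 to 3 and 11.80, 11.86 and 11.70 in treated samples 1 to 3. The treated samples lay close together and the lowest of them was 2.02 above the highest control. The mean went from 9.57 ± 0.12 to 11.79 ± 0.085 (SD, n = 3 each), or 4.65-fold higher (95% confidence interval 4.14 to 5.23). On the log2 scale the difference was 2.22 with a standard error of 0.073 (adjusted p = 3.6e-07, limma). In size the difference exceeded that of 99.0% of the genes tested, and by size of rise *Bcl2* stood at rank 103. The gene lies on chromosome 1 of GRCm38, 106538178 to 106714274, on the minus strand, and its exons overlap an antisense gene, *D630008O14Rik*, that was at 0 in both groups.

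*Mcl1* encodes a short-lived survival protein on which early lymphoid cells are known to depend. It was at 12.02, 11.99 and 11.94 in control samples and at 12.45, 12.47 and 12.42 in treated samples. Both groups were tight, with SDs of 0.039 and 0.026 (n = 3 each), and a gap of 0.40 separated them. The log2 difference was 0.46 (standard error 0.045, adjusted p = 9.9e-05, limma), a 1.38-fold higher level. *Mcl1* lies on chromosome 3, 95658788 to 95663176, on the plus strand.

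*Bcl2l1* gives rise to BCL-XL, the long isoform with survival function, and a gene-level value does not separate isoforms. It lies on chromosome 2 of GRCm38, 152780668 to 152831728, on the minus strand. The control samples were at 10.87, 11.06 and 11.16 and the treated samples at 11.27, 11.22 and 11.48. Treated sample 2 was only 0.065 above control sample 3, so that the groups barely separated. The log2 difference was 0.30 (standard error 0.093, adjusted p = 0.030, limma), a 1.23-fold higher level with a 95% confidence interval from 1.06 to 1.43. This call was lost without control sample 1 (difference 0.22, adjusted p = 0.089, limma), without control sample 2 (0.31, adjusted p = 0.064), without treated sample 1 (0.32, adjusted p = 0.052) and without treated sample 3 (0.22, adjusted p = 0.063), with each sample centred on its median (0.27, adjusted p = 0.0504) and with no limit on the mean (adjusted p = 0.092). In each group the sample with the highest *Bcl2l1* value, control sample 3 and treated sample 3, also had the lowest values of long genes relative to short ones, with a longest-minus-shortest-quarter difference of −0.12 and −0.058 against −0.0069 to 0.089 in the other 4 samples. The part of this in the difference was not tested, and after removal of trends on GC content and length the difference was 0.30 (adjusted p = 0.019, limma).

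Among the BH3-only genes, *Pmaip1* showed the largest rise. NOXA, its product, binds MCL1 with preference among survival proteins. The control samples were at 7.54, 7.39 and 7.29 and the treated samples at 8.71, 8.84 and 8.48. The treated samples spread more than the controls (SD 0.18 against 0.13), and the lowest of them was 0.94 above the highest control. The log2 difference was 1.28 (standard error 0.11, adjusted p = 5.9e-05, limma), a 2.42-fold higher level, and it exceeded 96.2% of the genes tested in size. The gene lies on chromosome 18, 66458533 to 66465565, on the plus strand.

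*Bmf*, whose product is held at the cytoskeleton in healthy cells, was at 7.31, 7.45 and 7.11 in control samples and at 8.32, 8.23 and 8.18 in treated samples. Here the controls were the more variable group (SD 0.17 against 0.073). The log2 difference was 0.95 (standard error 0.10, adjusted p = 0.00017, limma), a 1.94-fold higher level. *Bmf* lies on chromosome 2, 118528757 to 118549687, on the minus strand.

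*Bcl2l11* encodes BIM, which binds all survival proteins of the family. It was at 10.40, 10.40 and 10.30 in control samples and at 11.20, 11.03 and 11.03 in treated samples, without overlap. The log2 difference was 0.72 (standard error 0.062, adjusted p = 5.3e-05, limma), a 1.65-fold higher level. It lies on chromosome 2, 128126038 to 128162547, on the plus strand.

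*Bbc3* and *Bid* did not pass the threshold. *Bbc3*, which encodes PUMA, a p53 target, was at 7.80, 7.97 and 7.95 in control and 8.05, 7.99 and 7.86 in treated samples. The groups overlapped, and the log2 difference of 0.060 had a 95% confidence interval from −0.14 to 0.26. Transcripts of *Bbc3* hold 68.6% GC, more than 99.9% of the genes tested. With trends of each library on GC content and length removed, an alternative chosen after seeing the data, *Bbc3* was higher by 0.35 (adjusted p = 0.0051, limma), and with quantile normalization the difference was −0.021. *Bid*, whose product links death receptors to mitochondria, was at 9.77, 9.75 and 9.74 in control and 9.84, 9.70 and 9.59 in treated samples. The treated samples lay on both sides of the tight controls (SD 0.13 against 0.019), and the interval of the difference ran from −0.21 to 0.12. *Bbc3* lies on chromosome 7, 16308393 to 16318205, on the plus strand, and *Bid* on chromosome 6, 120891930 to 120916853, on the minus strand. *Bid* shares 628 exonic bases with *Bcl2l13* on the other strand. The library kit marked strand, while the strand setting of the counting is not given in the sources used here. *Bcl2l13* was at 10.89 in control and 10.85 in treated cells.

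The effector genes did not pass either. *Bax* was at 10.07, 10.17 and 10.20 in control and 10.09, 9.95 and 10.05 in treated samples. The difference of −0.12 had a 95% confidence interval from −0.25 to 0.023 (adjusted p = 0.15, limma). *Bak1* was at 11.34, 11.30 and 11.47 in control and 11.20, 11.25 and 11.43 in treated samples. Its interval ran from −0.25 to 0.091 (adjusted p = 0.40, limma), and with trends on GC content and length removed the difference changed sign, to 0.017. On a linear scale these intervals cover levels from 0.84-fold to 1.02-fold for *Bax* and from 0.84-fold to 1.06-fold for *Bak1*. *Bax* lies on chromosome 7, 45461697 to 45466898, and *Bak1* on chromosome 17, 27019810 to 27029009, both on the minus strand. *Bax* shares 192 exonic bases with *Gm45808* on the same strand, and *Bak1* overlaps *Ggnbp1* on the other strand, which was at 5.28 in control and 5.69 in treated cells.

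**Figure D2:**
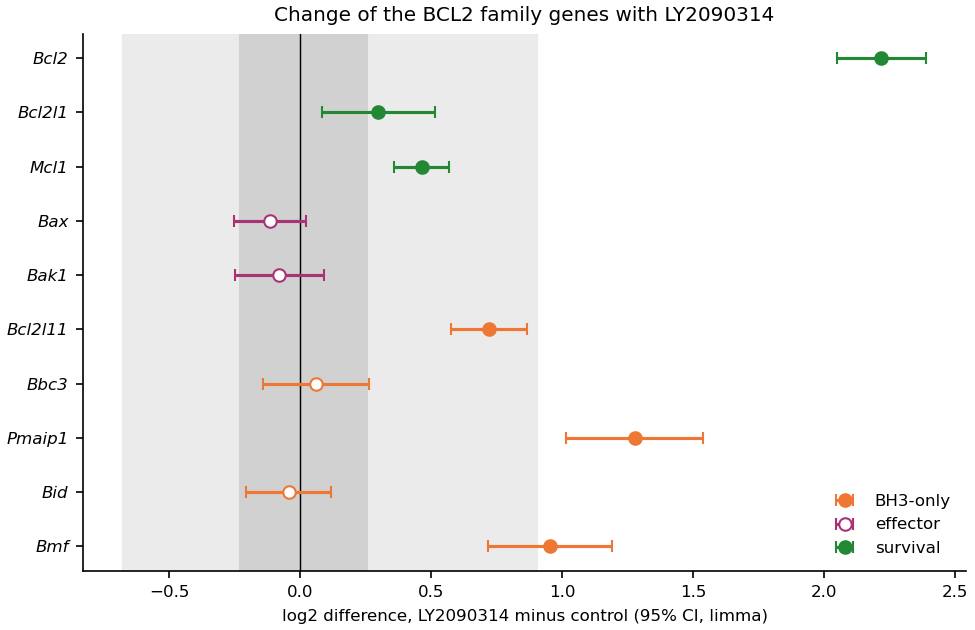
Log2 difference between LY2090314-treated and control ERT2 cells (x axis) for each gene, with its 95% confidence interval from limma. Filled points passed an adjusted p under 0.05, and the light and dark grey bands run from the 5th to the 95th and from the 25th to the 75th percentile of all genes tested. *Bcl2*, *Pmaip1* and *Bmf* lie to the right of the light band, which ends at 0.90.

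To place the genes against each other, each rlog value was lowered by the log2 of the exonic length of the gene in kilobases. In control cells *Mcl1* had the highest level per length (10.21), followed by *Bak1* (10.11), *Bax* (9.49), *Bcl2l1* (8.83), *Bid* (7.92), *Bcl2l11* (7.36), *Bbc3* (6.82), *Bcl2* (6.37), *Pmaip1* (5.95) and *Bmf* (4.90). *Mcl1* and *Bak1* differed by 0.10, against an SD of 0.086 for *Bak1*, and were not resolved. Every other step in this order was at least 0.42, against SDs of up to 0.17. In treated cells *Bcl2* had moved from rank 8 to rank 5 (8.59 on the same per-length scale), above *Bcl2l11* (8.08) and *Bid* (7.88), and *Pmaip1* (7.23) had moved above *Bbc3* (6.88). *Mcl1* (10.67) stood 0.65 above *Bak1* (10.03), while *Bcl2l11* and *Bid* were 0.20 apart, against an SD of 0.13, and *Bax* and *Bcl2l1* 0.25 apart, against an SD of 0.14. With the longest coding transcript as the length, *Bak1* (10.12) and *Bax* (10.01) were also close in control cells, so that this step depended on the length chosen. By that length, ranks 1 to 10 in control cells and the ranks of *Bcl2* in both groups were the same, while *Bcl2l1* and *Bax* exchanged ranks 3 and 4 in treated cells. The step between *Bcl2* (8.94) and *Bcl2l11* (8.75) in treated cells was then smaller than the 0.51 by exonic length, so that its size also depended on the length chosen.

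Because *Bcl2l11* and all 3 survival genes rose, their ratio was also computed within each sample, as the difference of rlog values. The fixed length of each gene cancels in the shift of this ratio between groups. Trends of single libraries on length or GC content do not cancel. The log2 ratio of *Bcl2l11* to *Bcl2* was 0.72, 0.81 and 0.86 in control samples and −0.60, −0.84 and −0.67 in treated samples. The ratio fell in every treated sample below every control, 2.82-fold on average. The ratio of *Bcl2l11* to *Mcl1* was −1.62, −1.59 and −1.64 in control samples and −1.25, −1.45 and −1.39 in treated samples, a shift of 0.26 in the other direction, which was 0.16 with trends on GC content and length removed. For *Bcl2l11* to *Bcl2l1* it was −0.47, −0.66 and −0.86 in control and −0.072, −0.19 and −0.45 in treated samples, a shift of 0.42 with SDs of 0.19 and 0.20 and the lowest treated sample only just above the highest control. These ratios are descriptions with no test. They show unequal rises of the transcripts and do not measure the proteins.

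**Figure D3:**
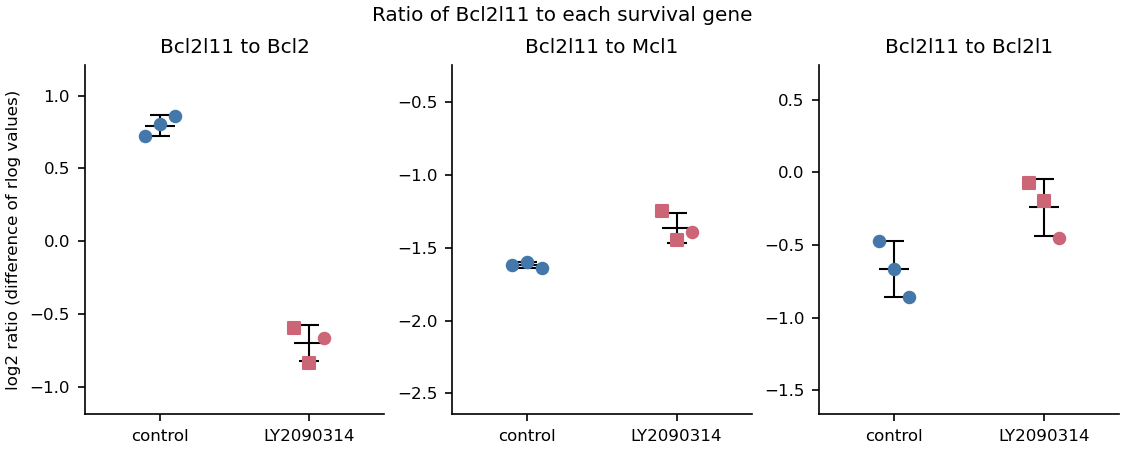
Log2 ratio of *Bcl2l11* to *Bcl2*, *Mcl1* and *Bcl2l1* (y axis, difference of rlog values) in each control and LY2090314-treated sample, with mean and SD in black and squares for the treated samples that share a library number. Each panel spans 2.4 log2 units. The ratio to *Bcl2* fell from 0.80 to −0.70 on average, while the ratios to *Mcl1* and *Bcl2l1* were higher in the treated samples.

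The 3 genes whose values over the 6 samples were most like those of *Bcl2*, by the root mean square difference of gene-centred rlog values, were *Acpp* (0.037), *Dusp4* (0.084) and *Gbp9* (0.095), out of 11535 genes compared. *Acpp* went from 9.77 to 12.01, *Dusp4* from 6.33 to 8.64 and *Gbp9* from 7.66 to 9.93. With 2 groups of 3 samples, this likeness mainly reflects an equal rise.

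*Pmaip1* was left out of the promoter search. For the other 9 of the 10 genes, RefSeq promoter windows of GRCm38.p6 were used, 16 windows in all. Each ran from 250 bases before to 50 bases after a start site. They were searched on both strands, as exact letters, for the E-box CACGTG bound by MYC and MAX, CTTTGAT of TCF/LEF factors, GTAAACA of FOXO factors and TGGGAA of Ikaros factors. The paper gives the Ikaros core motif as the shorter GGGAA, which was not searched. The E-box was found in *Bax* and *Bbc3*, GTAAACA in *Bcl2l11* and *Bbc3*, TGGGAA in *Bax* and *Bmf*, and CTTTGAT in none of the 9 genes searched. Over all 32851 windows of the same length, 7.15% hold the E-box, 3.73% CTTTGAT, 3.65% GTAAACA and 25.6% TGGGAA. Counted by gene, over 27025 genes, these shares are 8.09%, 4.29%, 4.05% and 28.3%. The windows below were chosen to show *Bcl2*, the gene with the largest rise, which holds none of these 4 motifs, both windows with GTAAACA, 1 from a gene that rose (*Bcl2l11*) and 1 from a gene that did not pass (*Bbc3*), and *Bax*, which holds 2 E-boxes and did not pass. Capitals mark the motifs searched, so that GGGAA without a T before it stays in lower case. A match of letters is a description and not a bound site.

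The windows are chr1:106714241-106714540 on the minus strand for *Bcl2*, chr2:128125788-128126087 on the plus strand for *Bcl2l11*, chr7:16310011-16310310 on the plus strand for *Bbc3* and chr7:45466849-45467148 on the minus strand for *Bax*, written 5′ to 3′.
Bcl2: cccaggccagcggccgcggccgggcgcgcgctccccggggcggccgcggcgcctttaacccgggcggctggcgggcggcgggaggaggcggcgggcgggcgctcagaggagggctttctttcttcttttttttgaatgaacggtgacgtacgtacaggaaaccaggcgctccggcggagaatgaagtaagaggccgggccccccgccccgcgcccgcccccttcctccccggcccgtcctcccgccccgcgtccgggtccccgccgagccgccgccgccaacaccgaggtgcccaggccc
Bcl2l11: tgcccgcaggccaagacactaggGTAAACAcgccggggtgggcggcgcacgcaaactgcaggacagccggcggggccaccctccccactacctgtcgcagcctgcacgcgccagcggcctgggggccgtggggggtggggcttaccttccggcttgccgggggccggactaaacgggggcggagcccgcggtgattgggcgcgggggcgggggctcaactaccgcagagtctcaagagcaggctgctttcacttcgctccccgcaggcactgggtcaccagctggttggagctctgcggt
Bbc3: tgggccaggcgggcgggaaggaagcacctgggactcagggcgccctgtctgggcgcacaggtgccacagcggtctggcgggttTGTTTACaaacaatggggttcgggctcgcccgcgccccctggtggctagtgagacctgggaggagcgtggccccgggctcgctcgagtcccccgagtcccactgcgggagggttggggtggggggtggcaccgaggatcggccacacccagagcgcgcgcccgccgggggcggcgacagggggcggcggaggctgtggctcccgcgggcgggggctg
Bax: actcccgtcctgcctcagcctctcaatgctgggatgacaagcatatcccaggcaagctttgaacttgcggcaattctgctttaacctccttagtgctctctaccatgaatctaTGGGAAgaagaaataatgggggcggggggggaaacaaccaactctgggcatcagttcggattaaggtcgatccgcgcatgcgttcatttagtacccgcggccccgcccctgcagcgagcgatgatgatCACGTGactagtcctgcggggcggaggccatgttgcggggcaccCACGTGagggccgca

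GTAAACA begins 227 bases before the start site in the window of *Bcl2l11* and 167 bases before it, as the reverse complement, in that of *Bbc3*. In *Bax* the E-boxes begin 9 bases before and 35 bases after the start site, and TGGGAA begins 137 bases before it. The *Bcl2* window holds 44 CpG dinucleotides and that of *Bax* 19.

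The other genes of the pathway were taken from 8 lists of 70 genes, of which 58 were tested. Of these 58, 13 rose, 16 fell and 29 did not pass, to be read against 24.8% higher and 25.3% lower over all genes tested, with a median log2 difference of −0.042. Among the remaining survival members, *Bcl2l2*, which encodes BCL-W, was the only one of 5 tested and rose by 0.45 (adjusted p = 0.00090, limma), from 7.92 ± 0.047 to 8.37 ± 0.0042 (SD, n = 3 each). *Bcl2a1b* and *Bcl2l10* were at 0 in every sample, and *Bcl2a1a* and *Bcl2a1d*, near-identical copies whose reads can be shared, were at −2.28. Of 7 remaining death members 4 were tested, and 2 fell. *Bok*, an effector relative of BAX and BAK, was at 8.15, 8.24 and 8.47 in control and 6.65, 6.49 and 6.52 in treated samples. All treated samples were below all controls, a 3.32-fold lower level (log2 difference −1.73, standard error 0.11, limma adjusted p = 7.8e-06). *Bnip3*, a mitochondrial protein with a BH3-like region that acts in mitophagy, fell by 0.59 (adjusted p = 0.00011, limma). *Bad* differed by −0.32 (adjusted p = 0.057) and *Bnip3l* by −0.11 (adjusted p = 0.32). *Bik*, *Hrk* and *Bcl2l14* were under the limit.

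Downstream of the mitochondria, 13 genes of the apoptosome and caspases were tested, of which 1 rose and 6 fell, with a median difference of −0.033. *Htra2*, a mitochondrial protease that can relieve caspase inhibition, fell by 0.97 (adjusted p = 6.9e-05, limma), from 9.15 ± 0.10 to 8.18 ± 0.13 (SD, n = 3 each). *Cycs*, which encodes cytochrome c, fell by 0.59 (adjusted p = 0.00055, limma), while *Casp6* rose by 0.60 (adjusted p = 0.0041). *Endog*, a mitochondrial nuclease, fell by 0.44, and *Dffa*, which encodes the inhibitor and chaperone of the nuclease DFFB, fell by 0.25. *Aifm1*, named after its values were seen, fell by 0.20. *Apaf1*, *Casp9*, *Casp2*, *Diablo* and *Dffb* were among those that did not pass.

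Of 6 genes for inhibitors of apoptosis proteins, 3 rose and 1 fell. *Birc3* rose by 0.67 (adjusted p = 0.00029, limma), *Birc2* by 0.45 (adjusted p = 0.0017) and *Naip5* by 0.72 (adjusted p = 0.00026), the last a member of a multigene family whose reads can be shared between copies. *Birc5*, which encodes survivin and is known to be expressed in dividing cells, fell by 0.46 (adjusted p = 0.00012, limma). *Xiap* and *Birc6* did not pass.

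In the death receptor list, 8 of 10 genes were tested, 3 rose and none fell. *Cflar*, which encodes the caspase-8 inhibitor FLIP, rose by 0.55 (adjusted p = 0.0026, limma), the receptor gene *Fas* by 0.34 from a low level of 3.21 (adjusted p = 0.0069) and *Ripk1* by 0.20 (adjusted p = 0.019). *Casp8*, *Fadd*, *Tradd*, *Tnfrsf10b* and *Tnfsf10* did not pass, and *Fasl* and *Tnfrsf1a* were under the limit.

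Of 11 tested genes for transcription factors known to act on family genes, 3 rose and 4 fell. The largest change was that of *Myc*, which fell by 2.64 (adjusted p = 1.9e-08, limma). The others were small: *Bcl6*, a repressor, rose by 0.46 (adjusted p = 0.019), *Foxo1* by 0.27 (adjusted p = 0.0072) and *Foxo3* by 0.14 (adjusted p = 0.045), while *Trp53* fell by 0.19 (adjusted p = 0.012) and *Nfkb1* by 0.14 (adjusted p = 0.041, all limma). *Stat5b*, named after its values were seen, fell by 0.14. The count of 7 dropped to 4 without control sample 1 or 2 and to 2 without treated sample 2. It was also 4 with treated samples 1 and 2 averaged into 1 sample, with no mean-variance trend and with no lower limit on the mean.

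**Figure D4:**
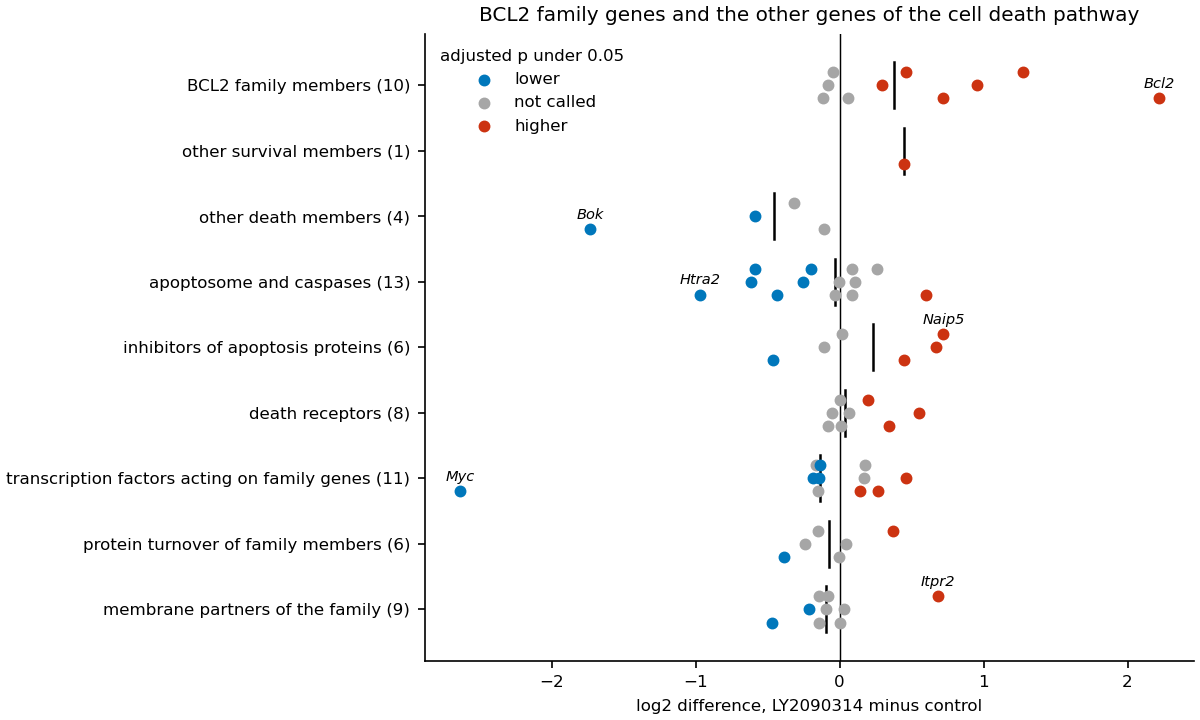
Log2 difference between LY2090314-treated and control ERT2 cells (x axis) for each gene tested, by list (y axis, number of genes tested in brackets), with the list median as a black line and the vertical position within a list only spreading the points. Red and blue points passed an adjusted p under 0.05 as higher or lower. *Bcl2* (2.22) lies at the right end, and *Bok* (−1.73) and *Myc* (−2.64) at the left.

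**Figure D5:**
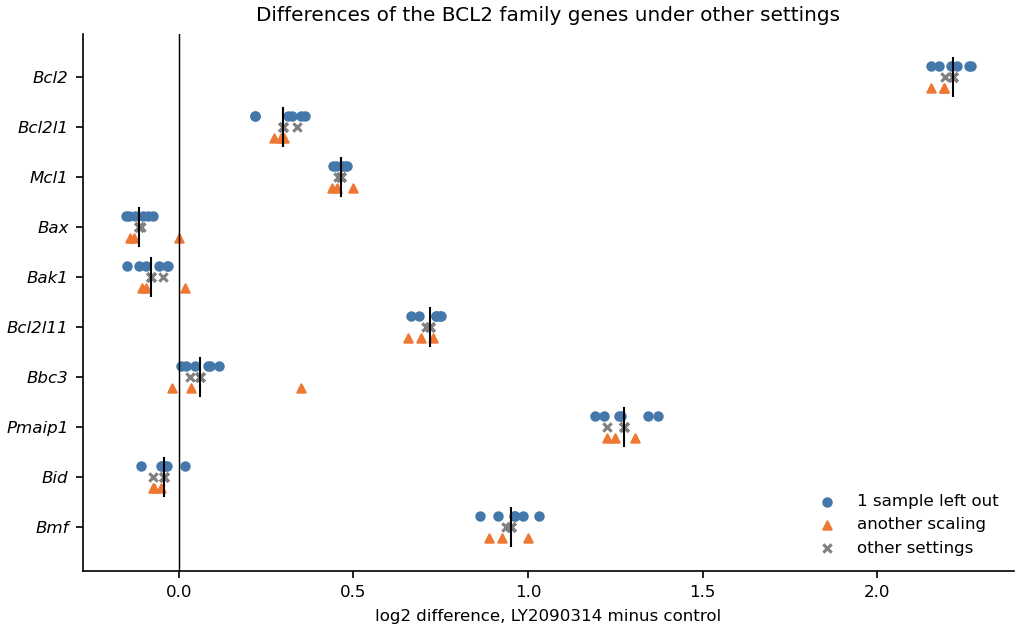
Log2 difference (x axis) of each of the 10 genes under 16 other settings, with the reported value as a black line. Circles leave out 1 sample, triangles use another scaling, and crosses are the other settings. Some settings change only the test and fall on the line. *Bcl2* stayed between 2.15 and 2.27, and *Bbc3* reached 0.35 with trends on GC content and length removed.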

How the data were processed

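RNA was measured by stranded, paired-end sequencing of polyadenylated transcripts. Reads were quantified with Salmon and aligned with STAR to GRCm38 (GENCODE vM24), and DESeq2 1.30.1 was used downstream, per the paper's methods and the submitters' processing notes. The authors deposited log2 values (rlog) per gene, and which samples and options entered the transformation is not given in the sources used here. Of 12 columns, 6 were assigned to a group by name, and 6 columns of per-sample values were not used. Symbols were matched to 41157 of 41444 identifiers.

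Genes with a mean rlog of at least 3 entered a limma 3.58.1 fit, run under R 4.3.3 (eBayes with a mean-variance trend, Benjamini-Hochberg adjustment over 11536 genes, threshold 0.05), and single genes by an exact permutation test. p-values measure the spread between these samples. GC and length trends were fitted with mgcv 1.9.3. Positions and lengths came from GENCODE vM21, also GRCm38. The members, lists and alternatives were chosen with earlier results of these data known. All 10 members were named, and of each list the genes with the largest changes among those past the threshold without overlap, up to 6 per list. Genes named as not having passed, or as under the limit, complete the lists. Some list genes that are counted are not reported by name here.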

Additional observations from a re-analysis of the deposited data

How the results depend on the processing

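Each of the 10 genes was computed under 16 alternatives, 160 values in all, of which 145 kept direction and side of the threshold. Part of this count was fixed in advance. Alternatives that change only the test, the filter or the threshold leave the difference as it was, so that its direction could not change. For genes that did not pass, a stricter threshold could not change the side. *Bcl2* and *Pmaip1* passed under all 16, at 2.15 to 2.27 and 1.19 to 1.37. *Mcl1*, *Bcl2l11* and *Bmf* did not pass under 1, a required log2 difference of at least 1, which left 2 of the 6 genes that rose, 2 of the 29 other pathway genes and 693 of 5778 genes. *Bcl2l1* did not pass under 8. With an adjusted p under 0.01, 18 other pathway genes passed. *Bbc3* reversed with quantile normalization (−0.021) and *Bak1* with GC content and length trends removed (0.017), where *Bbc3* passed (0.35). With each sample left out in turn, *Bid* was between −0.11 and 0.016, the latter without treated sample 3. None of these 3 reversed differences passed on either side, and the cause was not tested. All 30 values of the ratios moved by less than the larger of the SDs of the 2 groups, and most of this count was fixed in advance. Leaving out 1 sample of a group of 3, or averaging 2 of them, moves a group mean by less than its SD. Centring on the median cancels within a sample. Only quantile normalization and the removal of GC content and length trends could have moved a ratio further. For *Bcl2l11* to *Mcl1*, the shift of 0.26 was 0.16 with GC content and length trends removed and 0.20 without treated sample 1, moves larger than the control SD of 0.023. With treated samples 1 and 2 averaged into 1 sample, the same number of the 10 genes passed (6), and 26 other pathway genes passed. No paired analysis was possible because the columns carry no replicate numbers of the sample titles. What sequencing depth limits was not assessed, since the table holds no counts.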

Other observations

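Of 9 genes for membrane partners of the family, 1 rose and 2 fell, with a median log2 difference of −0.094. *Itpr2*, an IP3-gated calcium channel of the endoplasmic reticulum, rose by 0.68 (adjusted p = 3.4e-05, limma), from 11.43 ± 0.048 to 12.11 ± 0.076 (SD, n = 3 each), while its relative *Itpr3* fell by 0.21 (adjusted p = 0.014). *Vdac1*, the voltage-dependent channel of the outer mitochondrial membrane, fell by 0.47 (adjusted p = 0.00045, limma). *Itpr1*, singled out after its values were seen, was at 9.75, 10.54 and 9.39 in control and 10.38, 10.34 and 8.71 in treated samples, a wider spread within groups than any of the 10 BCL2 family genes showed.

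Of 6 tested genes for protein turnover of family members, *Fbxw7*, a ubiquitin ligase subunit known to act on MCL1 protein, rose by 0.37 (adjusted p = 0.0013, limma), and *Fbxo10*, a ubiquitin ligase subunit known to act on BCL2 protein, fell by 0.39 (adjusted p = 0.021). *Huwe1*, *Usp9x*, *Btrc* and *Marchf5*, listed in the table as *March5*, did not pass. The count of 2 was 1 without control sample 1 or 2, 4 without control sample 3 and 3 without treated sample 3.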
